A study of Mus musculus with 6 samples.

Results

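The genes described here encode the feedback inhibitors of mitogen-activated protein kinase (MAPK) signalling, 10 genes chosen as a readout of how strongly growth factor receptors drive the cell. They are the MAPK phosphatases Dusp1, Dusp2, Dusp4, Dusp5, Dusp6 and Dusp10, the Sprouty genes Spry1, Spry2 and Spry4, and the Sprouty-related gene Spred1. Each had 1 probeset with a single annotated gene symbol, so the 10 members were measured by 10 probesets of 21789 with a single symbol. They were followed in glomerular endothelial cells (GEC) sorted from sieved glomeruli of mice aged 7 months, with 3 normal arrays (genotype Tie2-GFP/ +/+) and 3 diabetic arrays (genotype Tie2-GFP/ DB/DB). Both groups carried the Tie2-GFP transgene, whose promoter marks endothelium and is also known to be active in some blood-forming and myeloid cells. The db/db mice carry a loss of function in the leptin receptor gene, which is not limited to endothelium. The labels call the samples biological replicates and give neither the sex nor whether a sample pooled several animals.

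Growth factors such as VEGF and FGF bind receptor tyrosine kinases, which switch on RAS, the RAF and MEK kinases and finally ERK. Active ERK turns on the genes of its own inhibitors. Dusp phosphatases remove the activating phosphates from ERK, p38 or JNK, while Sprouty and Spred proteins hold back RAS and RAF further upstream. In endothelium the Sprouty and Spred genes are known as brakes on vessel growth, and the transcript levels of Dusp6 and Spry4 are widely read as a sign of recent ERK activity. Dusp1 is also an immediate early gene that stress, cyclic AMP and glucocorticoids induce.

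The sequence just before the gene start is shown for 3 members, 2 of which hold the motifs searched (Dusp1 and Dusp5) and 1 of which, Dusp6, had the widest mean difference between the groups. Each is a stretch of 250 bases that ends just before the start site, 5′ to 3′ on the gene's own strand, from RefSeq on GRCm38.p6. Capitals mark matches to the cyclic AMP response element (CRE, TGACGTCA), its core (TGACG) or the CArG box, which serum response factor binds. The Dusp1 window lies at chr17:26508473-26508722 (minus strand), that of Dusp5 at chr19:53528895-53529144 (plus strand) and that of Dusp6 at chr10:99262981-99263230 (plus strand).
Dusp1: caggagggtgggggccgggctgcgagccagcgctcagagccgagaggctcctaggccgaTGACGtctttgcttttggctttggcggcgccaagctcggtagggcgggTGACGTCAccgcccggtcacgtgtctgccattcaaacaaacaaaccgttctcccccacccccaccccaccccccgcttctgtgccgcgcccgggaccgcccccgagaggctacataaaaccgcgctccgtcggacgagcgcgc
Dusp5: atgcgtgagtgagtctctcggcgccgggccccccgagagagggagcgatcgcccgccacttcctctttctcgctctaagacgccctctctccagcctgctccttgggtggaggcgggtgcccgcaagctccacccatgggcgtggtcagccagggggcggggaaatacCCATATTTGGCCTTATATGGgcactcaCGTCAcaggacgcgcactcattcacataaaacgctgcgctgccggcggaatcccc
Dusp6: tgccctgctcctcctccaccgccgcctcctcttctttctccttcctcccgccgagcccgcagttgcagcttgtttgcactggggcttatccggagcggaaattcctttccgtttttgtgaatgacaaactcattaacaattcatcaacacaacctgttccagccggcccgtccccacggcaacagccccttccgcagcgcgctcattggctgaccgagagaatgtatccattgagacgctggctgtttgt

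In the Dusp1 window a full CRE lay 143 to 136 bases before the start, and the CRE holds its core on both strands. A further core lay 191 to 187 bases before the start. The Dusp5 window held 2 adjoining CArG boxes, from 82 to 73 and from 72 to 63 bases before the start, and a CRE core on the opposite strand from 55 to 51. Of 32851 RefSeq windows of this length 1.55% held a CRE, 17.8% its core and 1.47% a CArG box, on either strand. The AP-1 site TGAGTCA (4.46% of windows), the ETS site CCGGAAG (6.91%) and the glucocorticoid receptor motif AGAACA (16.1%) were also searched. Of the 10 members 8 were matched in the RefSeq table, and in the windows of Dusp2, Dusp6, Dusp10, Spry1, Spry2 and Spred1 none of the 6 motifs occurred. A match describes the letters alone, and the arrays did not measure binding.

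The values are log2 probeset signal. Signals of different probesets depend on their probes, so levels are compared here between arrays and not between genes. The sums over marker lists given below add different probesets, so that bright probes weigh most, and serve to compare arrays. They take in every marker with a probeset, also those that did not pass the floor given next. As a floor the study's level of 100 on the linear scale was used (6.64 on the log2 scale), to be reached in 3 or more arrays. All 10 members passed it. 9 of them did so in 6 of 6 arrays, and Dusp10 in just 3, so its values lie at the floor. The arrays had median log2 signals of 7.00 to 7.04, and normal replicate 2 stood apart from the other arrays on the first principal component (30.5% of the variance). Of the endothelial markers 6 of 6 passed the floor, with a summed linear signal of 36224 to 37184 in normal and 36663 to 37296 in db/db arrays. Of the leukocyte markers 2 of 7 passed the floor, with a sum of 524 to 585 in normal and 593 to 823 in db/db arrays. The macrophage marker Cd68 had log2 means of 6.72 in normal and 7.48 in db/db (limma, adjusted p = 0.752). Cd3e, the other marker that passed, went the other way, with 7.25 and 7.14 (limma, adjusted p = 0.944). Lyz2, lysozyme of myeloid cells, reached the floor in 2 arrays and had log2 means of 6.34 and 6.95. Ptprc, Itgam and Adgre1 (listed as Emr1) lay below the floor in all arrays. Of the podocyte markers 4 of 4 passed, with a sum of 4397 to 5258 in normal and 3962 to 4055 in db/db. One of these, Podxl, is also known from endothelium. Mesangial markers (2 of 6 passed) summed to 790 to 990 in normal and 964 to 1105 in db/db. Of the 2 that passed, Meis1 gave 9.03, 7.94 and 8.94 in normal and 8.78, 9.04 and 8.97 in db/db arrays. Normal replicate 2 was thus its lowest array. Acta2, the other, had log2 means of 7.39 and 7.49, and the groups overlapped for both. Proximal tubule markers (3 of 5 passed) summed to 1556 to 1587 in normal and 1286 to 1553 in db/db. Most of the proximal tubule sum came from Aqp1, whose log2 means equal 1113 in normal and 968 in db/db on the linear scale. The others that passed, Slc34a1 and Slc5a2, had log2 differences of 0.03 and 0.10. Lrp2 and Cubn, also on this list, lay below the floor in all arrays. Erythrocyte markers (2 of 2 with a probeset passed) summed to 284 to 309 in normal and 270 to 300 in db/db. What part these cells have in the values below was not tested. In bulk RNA of a sort, fewer cells of a type and less RNA per cell cannot be told apart.

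Setting diabetic against normal GEC asked whether these readouts of growth factor signalling differ in the diabetic glomerulus. None of the 10 members passed limma's test when adjusted over all 20661 probesets, where 0% of probesets passed (smallest adjusted p = 0.203, and 1320 probesets at an unadjusted p under 0.05). The changes of the members lay between -0.21 and 0.40 on the log2 scale with a median of 0.03, beside a median of 0.01 over the 12763 genes tested. Without regard to sign, the median size of change over these genes was 0.11. At an unadjusted p under 0.05 1 member, Spry4, was higher in db/db, against 3.49% of all genes in that direction, and 0 were lower, against 3.07%. In 2 members, Dusp6 and Spry4, every db/db array lay above every normal array, as in 7.39% of all genes, and in 1, Dusp5, every db/db array lay below, as in 5.92%.

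**Figure D1:**
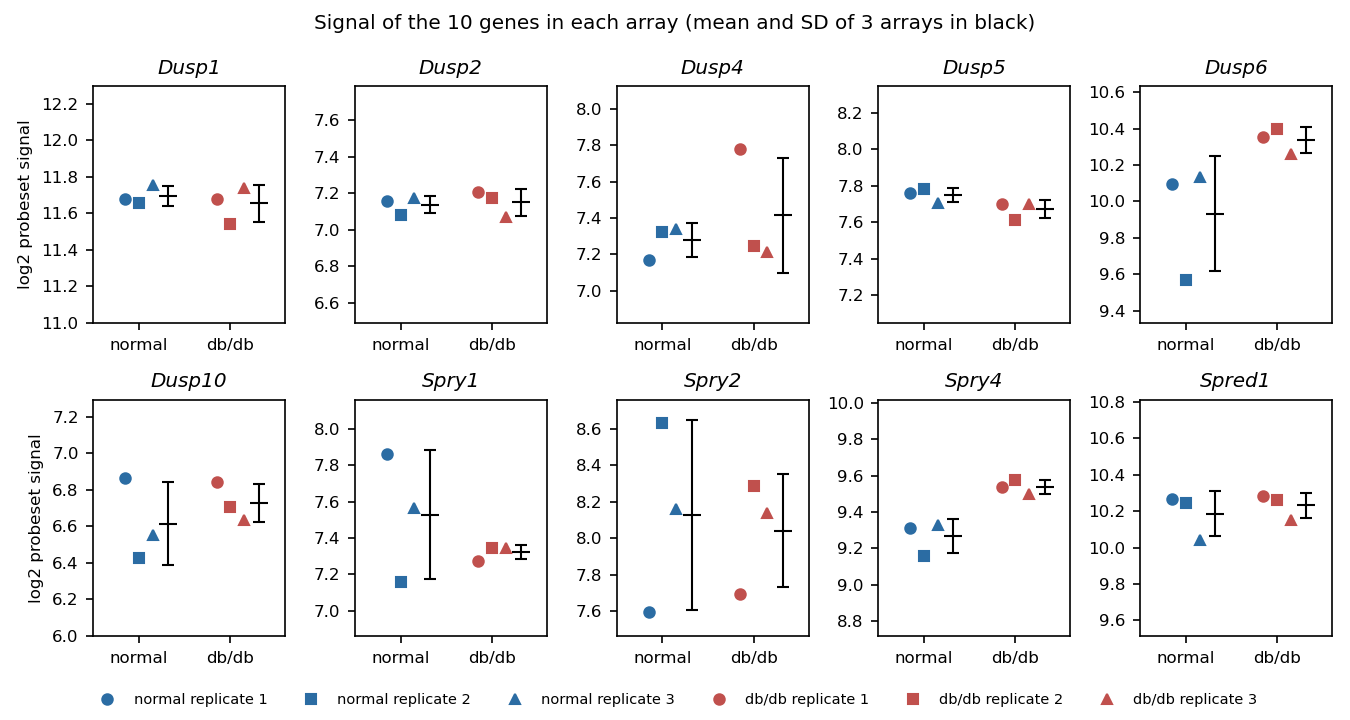
Log2 probeset signal (vertical axis) of each gene in the 3 normal arrays (blue) and the 3 db/db arrays (red), with symbols for the replicate and black bars for each group's mean with its SD (n = 3). Each panel spans the same range of 1.3 log2 units. For Dusp6 and Spry4 all db/db points lie above all normal points, and Spry1 and Spry2 were widely spread in normal arrays.

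Dusp6 encodes the cytoplasmic phosphatase that acts on ERK with high selectivity. Its log2 signal was 10.10, 9.57 and 10.14 in normal replicates 1 to 3 and 10.35, 10.40 and 10.26 in diabetic replicates 1 to 3. The 3 db/db arrays lay close together and above the normal ones, of which replicate 2 was far below the other two. The mean went from 9.93 ± 0.32 to 10.34 ± 0.07 (SD, n = 3 per group). This is a difference of 0.40 ± 0.17 (SE), or 1.32-fold, with a 95% interval from 0.985-fold to 1.77-fold (limma, unadjusted p = 0.0591, adjusted p = 0.784). A larger change in either direction was found in 8.31% of all genes tested, and a smaller residual SD in 68.9%. Without normal replicate 2 the difference was 0.22 ± 0.09 (limma, adjusted p = 0.780). That array was the one that stood apart on the first principal component.

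Spry4, a Sprouty that restrains receptor-driven activation of RAS and RAF, gave 9.31, 9.16 and 9.33 in normal and 9.54, 9.57 and 9.50 in db/db arrays. The groups did not overlap, and here too normal replicate 2 was the lowest array. The means were 9.27 ± 0.09 and 9.54 ± 0.04 (SD, n = 3 per group). The difference of 0.27 ± 0.08 (SE), or 1.20-fold with a 95% interval from 1.04-fold to 1.39-fold, had the smallest p of the 10 members (limma, unadjusted p = 0.0202, adjusted p = 0.701). Of all genes tested 17.9% had a larger change in either direction, and 10.1% had a smaller residual SD. Without each array in turn the difference lay between 0.22 and 0.30, and its unadjusted p in limma was 0.0514 without normal replicate 2, 0.0519 without diabetic replicate 1 and 0.0636 without diabetic replicate 2. The leukocyte marker sum given above was higher in the db/db arrays with no overlap, though its ranges nearly met (585 and 593). It takes in 5 markers that did not pass the floor, and the 2 that passed were not summed alone. Not all of its markers rose, as Cd3e had a lower mean in db/db. The part of this sum in the Spry4 and Dusp6 values was not tested.

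Over the 6 arrays the genes whose profile about their own mean lay nearest to that of Spry4 were Ctage5, Api5, Tfip11, Ssr1 and Ralb, with root mean square distances of 0.033, 0.038, 0.041, 0.047 and 0.047 log2 units. Their own log2 differences were between 0.20 for Ralb and 0.32 for Ssr1. As the genes were picked by this likeness, differences near that of Spry4 follow from the choice.

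Dusp1, Dusp2, Dusp4 and Dusp5 encode inducible phosphatases of the nucleus, and Dusp10 one that prefers p38 and JNK. Dusp1, which acts on p38, JNK and ERK, gave 11.68, 11.65 and 11.75 in normal and 11.68, 11.54 and 11.74 in db/db arrays. The arrays of both groups were intermingled. Its difference was -0.04 ± 0.09 (SE), and the 95% interval ran from 0.835-fold to 1.13-fold. Dusp2, best known from activated lymphocytes, gave 7.16, 7.08 and 7.18 in normal and 7.21, 7.17 and 7.07 in db/db arrays. These values were also intermingled, with a difference of 0.01 ± 0.08 whose sign turned with the scaling (-0.0038 with quantile normalisation and -0.0061 with median centring). Its interval ran from 0.877-fold to 1.16-fold.

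Dusp5, a nuclear phosphatase of ERK, gave 7.76, 7.78 and 7.71 in normal and 7.70, 7.61 and 7.70 in db/db arrays. All db/db arrays lay below the normal ones, though normal replicate 3 and diabetic replicate 1 were almost level. The difference was -0.08 ± 0.08 (limma, adjusted p = 0.903), with a 95% interval from 0.832-fold to 1.08-fold that includes no change. Dusp4, which acts on ERK and JNK in the nucleus, gave 7.17, 7.32 and 7.34 in normal and 7.78, 7.25 and 7.21 in db/db arrays. Diabetic replicate 1 alone was high. With it the difference was 0.14 ± 0.17 and without it -0.05 ± 0.10. Dusp10 gave 6.87, 6.42 and 6.55 in normal and 6.84, 6.71 and 6.63 in db/db arrays. The groups overlapped, the difference was 0.11 ± 0.14, and with array weights, which give less weight to arrays that fit poorly, it was 0.02. Without normal replicate 2 it was also 0.02, and without diabetic replicate 3 it was 0.16.

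Spry1 and Spry2 were the members with the widest spread among normal arrays. Spry1, needed for branching in the developing kidney, gave 7.86, 7.16 and 7.57 in normal and 7.28, 7.34 and 7.35 in db/db arrays. Normal replicate 1 was the highest array and normal replicate 2 the lowest, and the db/db arrays lay between them within a range of 0.069. The difference was -0.21 ± 0.19, with an interval from 0.630-fold to 1.19-fold (limma, adjusted p = 0.897). It was -0.39 without normal replicate 2 (limma, unadjusted p = 0.0244, adjusted p = 0.714) and -0.04 without normal replicate 1, so the value moved with single arrays.

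Spry2, a Sprouty that VEGF and FGF induce, gave 7.59, 8.63 and 8.16 in normal and 7.69, 8.29 and 8.14 in db/db arrays. Here normal replicate 2 was the highest array and normal replicate 1 the lowest, the reverse of Spry1. The normal arrays spanned 1.04 log2 units, the db/db arrays 0.596, and the residual SD of 0.43 exceeded that of 92.5% of genes tested. The difference of -0.09 ± 0.30 had a 95% interval from 0.563-fold to 1.58-fold, the widest of the 10 members. Its sign turned without normal replicate 2 (0.16) and without diabetic replicate 1 (0.09), and it was -0.35 without normal replicate 1. Spred1, which brings the RAS inhibitor neurofibromin to the membrane, gave 10.27, 10.24 and 10.04 in normal and 10.28, 10.26 and 10.15 in db/db arrays. The groups were intermingled, with a difference of 0.05 ± 0.10 and an interval from 0.873-fold to 1.22-fold.

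**Figure D2:**
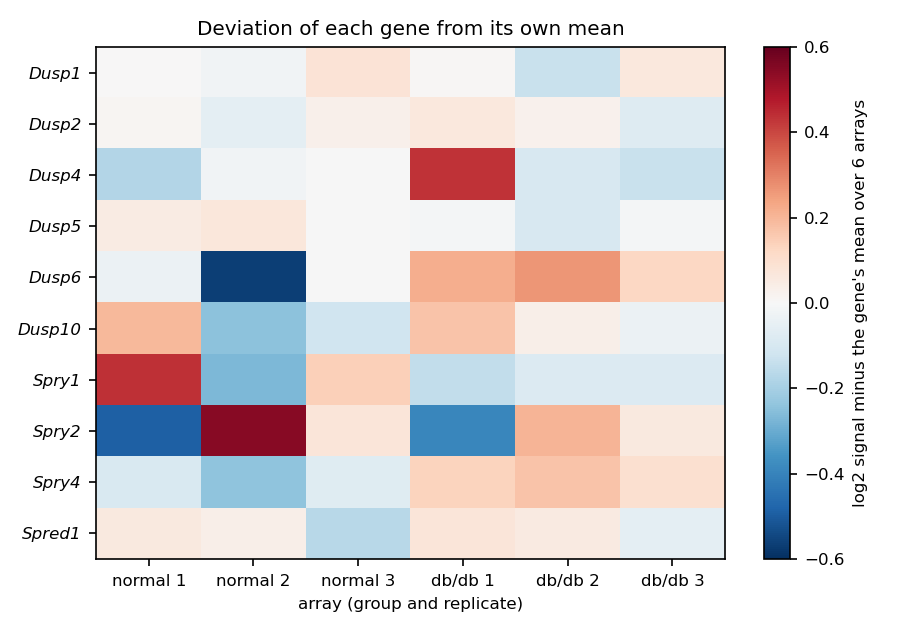
Deviation of each gene's log2 signal from its own mean over the 6 arrays (colour scale in log2 units), by array (columns) and gene (rows). Normal replicate 2 was the lowest array for Dusp6, Dusp10, Spry1 and Spry4 and the highest for Spry2, where it lay 0.55 above the mean.

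No single array was the highest or the lowest for most members. Normal replicate 2 was the lowest array for 4 members and the highest for 2 (Dusp5 and Spry2), and diabetic replicate 1 was the highest for 3 (Dusp2, Dusp4 and Spred1). The number of members above their own mean was 6, 3 and 4 in normal replicates 1 to 3 and 7, 6 and 4 in diabetic replicates 1 to 3. Immediate early genes, which cell dissociation is known to induce, were counted in the same way. Of 19 such genes 13 lay above their own mean in normal replicate 1, 13 in normal replicate 2 and 7 in normal replicate 3, and 9, 12 and 11 in the db/db arrays.

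**Figure D3:**
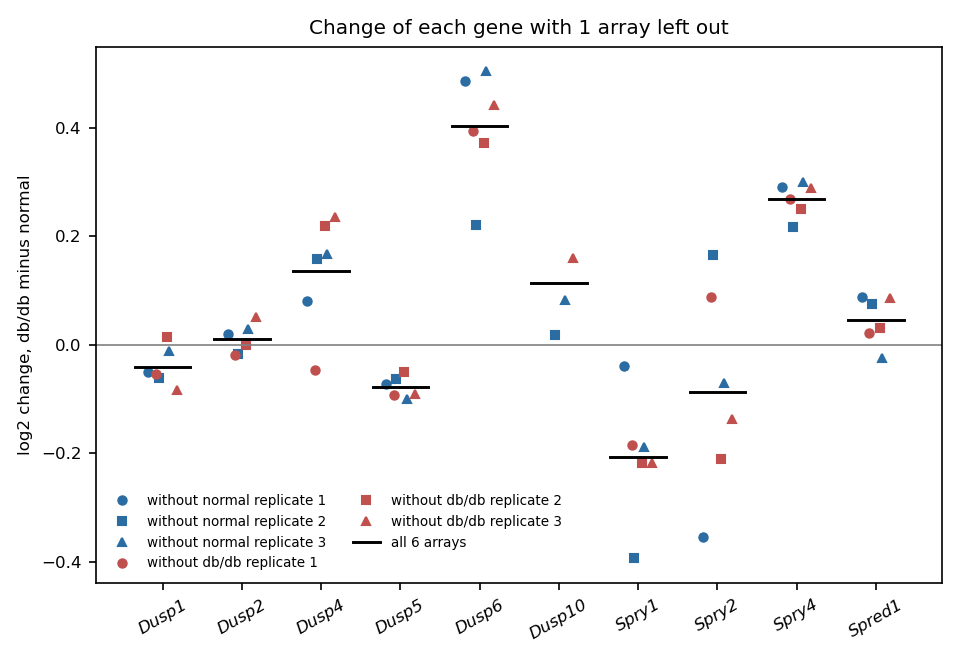
Log2 change, db/db minus normal (vertical axis), with all 6 arrays (black lines) and with 1 array left out (points, blue for normal and red for db/db arrays, with symbols for the replicate). Dusp6 and Spry4 stayed above 0, at 0.22 to 0.50 and 0.22 to 0.30, and the points of Dusp4, Spry1 and Spry2 spread with single arrays. Dusp10 has 3 points, since it fell below the floor in the other fits.

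Of the close relatives of these genes 6 of 7 were tested and 0 passed in either direction, with a median log2 change of 0.03. Dusp7, a cytoplasmic ERK phosphatase like Dusp6, gave 9.02, 8.96 and 8.93 in normal and 8.81, 8.57 and 8.82 in db/db arrays. All db/db arrays lay below the normal ones, opposite to Dusp6, with a difference of -0.24 ± 0.10 (limma, unadjusted p = 0.0577, adjusted p = 0.783). Spred2, a relative of Spred1, was at 12.65 ± 0.07 in normal and 12.67 ± 0.05 in db/db (SD, n = 3 per group), a difference of 0.03 ± 0.08. Dusp8 and Dusp16, which act on p38 and JNK, had differences of 0.37 ± 0.41 and -0.14 ± 0.16, and Dusp9 and Spred3 of 0.04 ± 0.08 and 0.22 ± 0.26. Spry3 lay below the floor in all arrays, at 5.18 ± 0.06 and 5.27 ± 0.19.

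Other transcripts that ERK activity is known to raise were set beside them. Of 12 such genes 10 were tested, and 0 passed in either direction (median log2 change 0.06). Etv5, an ETS factor that FGF and ERK signals induce, gave 9.32, 8.72 and 9.10 in normal and 8.78, 8.16 and 7.89 in db/db arrays. Of the db/db arrays 2 lay below every normal array and the third lay just above normal replicate 2. Its difference of -0.77 ± 0.27 was opposite in sign to those of Dusp6 and Spry4 (limma, unadjusted p = 0.0315, adjusted p = 0.753). Egr1, an immediate early factor, gave 7.78, 7.42 and 8.27 in normal and 8.23, 8.22 and 8.27 in db/db arrays. Here too normal replicate 2 was the lowest array, and the difference was 0.42 ± 0.22. Ccnd1 (cyclin D1), Phlda1, Epha2, Epha4, Etv1, Il17rd, Fosl1 and Ier3 had differences between -0.22 for Epha4 and 0.31 for Etv1. Myc was not tested, as it reached the floor in 2 arrays. It gave 5.60, 5.74 and 5.51 in normal and 7.23, 7.36 and 6.12 in db/db arrays, so that all db/db arrays lay above the normal ones, and Etv4 lay below the floor in all arrays.

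**Figure D4:**
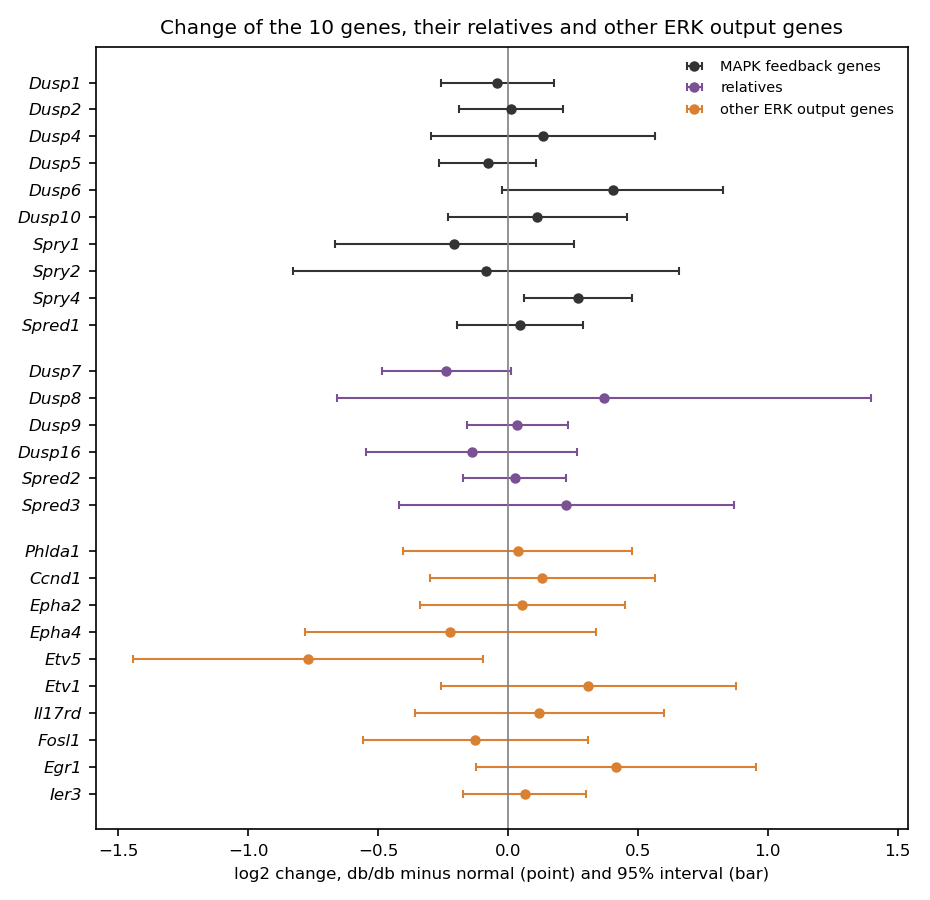
Log2 change, db/db minus normal (points), with its 95% interval (bars) from limma for the 10 MAPK feedback genes (black), their tested relatives (purple) and other tested ERK output genes (orange). The intervals of Spry4 and Etv5 did not reach 0, on opposite sides of it, and those of Dusp8, Spry2 and Etv5 were among the widest.

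Upstream of the feedback genes, 16 genes of the core ERK cascade were tested. None passed, and the median change was 0.01. The smallest p belonged to Nf1, the neurofibromin that Spred1 recruits, with 9.91, 9.84 and 10.03 in normal and 10.24, 10.21 and 10.37 in db/db arrays. The groups did not overlap, and the difference was 0.34 ± 0.09 (limma, unadjusted p = 0.0115, adjusted p = 0.628). Braf, a RAF kinase, followed at 0.35 ± 0.11 (limma, adjusted p = 0.704).

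Of 16 growth factor receptors 11 were tested and 0 passed, with 9 of 11 changes below 0 (median -0.08), beside 5913 of all 12763 genes tested. Fgfr3, an FGF receptor, and Tek, the angiopoietin receptor whose promoter drives the transgene, had differences of -0.45 ± 0.15 and -0.33 ± 0.12 (limma, adjusted p = 0.712 and 0.754). Kdr, the main VEGF receptor of endothelium, named after its values were seen, differed by 0.10 ± 0.07. Of 14 JNK and p38 kinases 12 were tested and 0 passed, with 9 of 12 changes below 0 (median -0.14), beside the same 5913 of 12763 genes. Mapk14, the p38 kinase that Dusp1 and Dusp10 act on, gave 9.71, 9.71 and 9.86 in normal and 9.52, 9.26 and 9.15 in db/db arrays. The groups were separate, with a difference of -0.45 ± 0.12 (limma, unadjusted p = 0.0109, adjusted p = 0.626). Map2k3, a kinase that activates p38, differed the other way by 0.33 ± 0.10 (limma, adjusted p = 0.702).

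Among the genes that share inducers with Dusp1, 19 of 20 immediate early genes were tested and 0 passed (median 0.01). Klf4, a Krüppel-like factor that blood flow induces in endothelium, and Atf3, a stress-induced factor, had the smallest p, with differences of -0.64 ± 0.11 and 0.58 ± 0.16 (limma, adjusted p = 0.376 and 0.626). Of 10 glucocorticoid-induced genes 7 were tested and 0 passed (median -0.04). Tsc22d3, the glucocorticoid-induced leucine zipper, and Fkbp5, a co-chaperone of the glucocorticoid receptor, differed in opposite directions, by -0.21 ± 0.10 and 0.33 ± 0.17.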

How the data were processed

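RNA of sorted Tie2-GFP positive GEC was amplified and hybridised to 6 Affymetrix Mouse Gene ST arrays, 1 per sample. The values that the authors deposited are log2 probeset signal. The study states RMA normalisation in GeneSpring, while the submitters' processing notes name MAS5, and no further normalisation was applied. A normalisation between arrays makes each change relative to the other probesets. The number of arrays limits the precision.

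Probesets were named from the platform annotation. Where a gene had several, the probeset with the highest mean stood for it. Probesets at 100 or more (linear) in 3 or more arrays were compared with limma 3.58.1 (R 4.3.3, lmFit and eBayes) as two-sided differences, db/db minus normal. P-values of all 20661 probesets were adjusted together (Benjamini-Hochberg, threshold 0.05). The fit was tested on simulated data. With 3 arrays a side the smallest two-sided p of an exact permutation test is 0.1, and none was run. The rule for the genes named took the members, their relatives, the ERK output list, the 2 genes with the smallest p of each further list (some further genes of the core cascade are not reported here) and the 5 profiles nearest to the member with the smallest p. Outside it, Kdr, Scn7a and Adamts9 were named after their values were seen. So were the marker genes Cd68, Cd3e, Lyz2, Ptprc, Itgam, Adgre1, Podxl, Meis1, Acta2, Aqp1, Slc34a1, Slc5a2, Lrp2 and Cubn. Members and lists were chosen with earlier results of these data known. Cyr61 (now Ccn1) and Emr1 (now Adgre1) were matched through RefSeq synonyms. Figures were drawn with matplotlib 3.10.9.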

Additional observations from a re-analysis of the deposited data

How the results depend on the processing

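Of the 10 members 0 passed the adjusted threshold with all arrays or under any alternative run. These were quantile normalisation, median centring, no floor, a floor at a higher level, an intensity trend (also with a robust prior), array weights, a replicate block, the methods' t-test (equal variance), a single probeset per gene, the annotated probesets alone, a gene's probesets averaged and leaving out each array in turn. Dusp6, Dusp5, Spry1, Spry4 and Dusp10 kept their sign wherever they were tested (Dusp10 in 3 of the 6 fits that left out an array). The log2 change of Dusp2 was -0.00376 with quantile normalisation, -0.00614 with median centring and -0.00780 with array weights, and that of Spry2 was 0.10 with array weights. Leaving out 1 array gave ranges of -0.0831 to 0.0147 for Dusp1, -0.0184 to 0.0518 for Dusp2, -0.0469 to 0.236 for Dusp4, -0.0250 to 0.0880 for Spred1 and -0.35 to 0.16 for Spry2.

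At an unadjusted p under 0.05, 2 members (Spry4 and Dusp6) were higher in db/db with quantile normalisation, with 1 probeset per gene, with the annotated probesets alone and with a gene's probesets averaged, against 1 with all arrays. Without 1 array the count was 0 to 2 higher (0 without normal replicate 2 or diabetic replicate 1 or 2, and 2 without normal replicate 3) and 0 to 1 lower (Spry1 without normal replicate 2). With the replicate block 0 members were higher, where Spry4 had an unadjusted p of 0.0664 in limma. The labels do not say whether replicate numbers pair the samples. Deviations of same-numbered arrays correlated across probesets with r = -0.004, 0.035 and -0.030, and those of other pairs with r from -0.047 to 0.059. These values show no sign of pairing, but they cannot settle whether samples were handled in pairs. Over all probesets 1 gene fell (Scn7a) with 1 probeset per gene, and 1 rose (Adamts9) and 1 fell (Scn7a) with a gene's probesets averaged, where fewer features were tested. The methods' t-test called 0 probesets after Benjamini-Hochberg adjustment, and at its own threshold with over 1.5-fold change 180 higher and 133 lower, 0 of them members. The paper's own count for such a t-test and fold change was smaller, and the reason was not tested. Low signal limits Dusp10, which lies at the floor.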
